A study of Homo sapiens with 4 samples.

Results

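The region described is the human HMOX1 locus, taken as the hg19 stretch from 35677000 to 35890000 on chromosome 22. It holds HMOX1 itself, on the plus strand from about 35777060 to 35790207, with about 100 kb on either side. Every BACH1 peak whose summit fell in this stretch was a member, whatever its strength. There were 6 such peaks of 13661 in all, of which 4 came from the 10246 peaks of Calu3 and 2 from the 3415 peaks of 16HBE14o-. Calu3 is a human lung adenocarcinoma line and 16HBE14o- a line of human bronchial epithelial cells. Both were grown in DMEM with 10% FBS, and no treatment is labelled for either. Chromatin immunoprecipitation used 1 rabbit antibody against BACH1 in both lines, with 2 replicates per line. The replicates of each line had been combined into 1 list of reproducible peaks, so no value below has a replicate error, and no difference between the lines could be tested.

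HMOX1 encodes haem oxygenase 1, the inducible enzyme that breaks haem down to biliverdin, carbon monoxide and iron. BACH1 is a basic leucine zipper repressor that pairs with small MAF proteins on Maf recognition elements, which overlap the antioxidant response elements used by NRF2. Haem binds BACH1 and removes it from DNA, after which activators of the NRF2 type can occupy the same elements. HMOX1 is the best studied BACH1 target, and a pair of enhancers upstream of the gene, called E1 (proximal) and E2 (distal), carries clusters of these elements. Enhancer activity and HMOX1 transcripts were not measured by this assay. The lists gave the positions and strengths of BACH1 peaks.

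Both lines had a pair of strong BACH1 peaks just upstream of HMOX1. The proximal peak of 16HBE14o- ran from 35772972 to 35773205 with its summit at 35773084, which is 3976 bp upstream of the gene start. In Calu3 the proximal peak ran from 35772700 to 35773454, and its summit at 35773094 was 3966 bp upstream. The distal peak of 16HBE14o- ran from 35767950 to 35768195 with its summit at 35768060, which is 9000 bp upstream. Its Calu3 counterpart ran from 35767627 to 35768476, with the summit at 35768071 and 8989 bp upstream. Whether these peaks coincide with the enhancers E1 and E2 was not tested, since no enhancer positions on hg19 were used here. The gene start is the approximate position used to define the stretch, so distances to it depend on the transcript start chosen, whereas distances between summits do not.

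**Figure D1:**
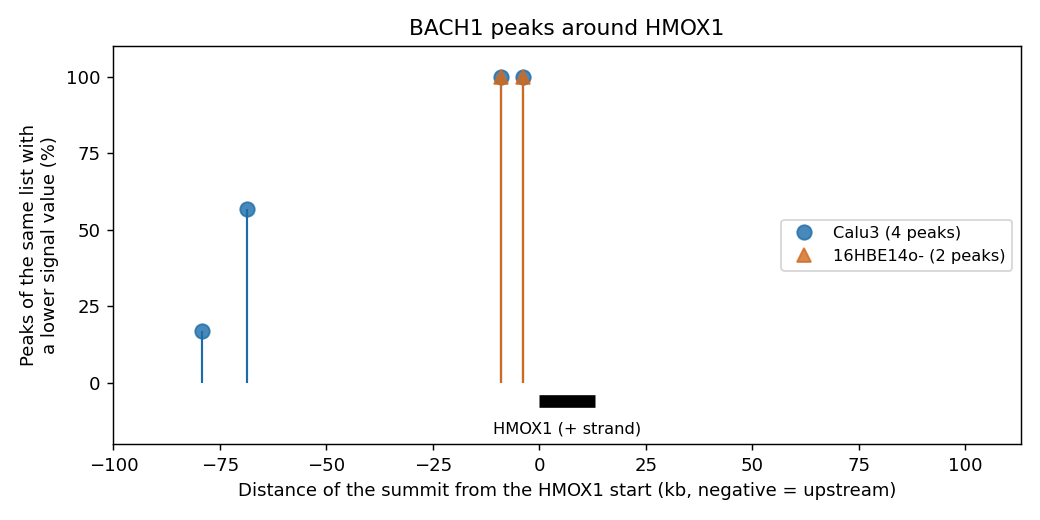
The x axis gives the distance of each summit from the HMOX1 start in kb, and the y axis the percentage of peaks in the same list with a lower signal value; points are single peaks (circles Calu3, triangles 16HBE14o-) and the black bar is the gene. The 2 peaks of 16HBE14o- coincide with 2 of the 4 Calu3 peaks near the top of the axis, the other 2 Calu3 peaks lie 68.76 and 79.26 kb upstream, and none lies over or downstream of the gene.

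The upstream pair stood at the head of the 16HBE14o- list. The proximal peak had a peak signal of 366 and ranked 1 of 3415, and the distal peak had 333 and ranked 2. These signals, on a scale the files do not state, were 12.2 and 11.1 times the list's median of 30.1. The peak of rank 3, elsewhere in the genome, had a signal of 311. On chromosome 22, which held 68 peaks of this list, the next peak after the HMOX1 pair had a signal of 98.4 and rank 137.

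In Calu3 the same pair ranked in the top 24 of 10246 peaks by fold enrichment, with the order of the pair turned round. The distal peak had a fold enrichment of 42.4 and ranked 12, and the proximal peak had 33.9 and ranked 24. Both lay far above the list's median fold enrichment of 4.13, by 10.3 and 8.21 times. They were the first and second of the 125 Calu3 peaks on chromosome 22, where the third had a fold enrichment of 23.0 and rank 119. The proximal signal was 1.10 times the distal signal in 16HBE14o- and 0.800 times in Calu3. Each of these ratios is a single value from a pooled list and the lists are on different scales, so the opposite order was not tested.

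Ranked by the deposited p-value instead of the fold, the distal HMOX1 peak was the first of all Calu3 peaks, with a −log10 p of 327, and the proximal peak was the fourth (rank 4), with a −log10 p of 280. The corresponding −log10 q were 318 and 273. The HMOX1 peaks were also wide. The distal peak covered 850 bp, with 10 Calu3 peaks wider, and the proximal peak covered 755 bp, against a list median of 235 bp. Of the 11 Calu3 peaks with a higher fold enrichment than the distal HMOX1 peak, 10 were narrower (median of the 11, 656 bp). Of the 23 with a higher fold enrichment than the proximal peak, 18 were narrower than it, and their median width was 638 bp.

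**Figure D2:**
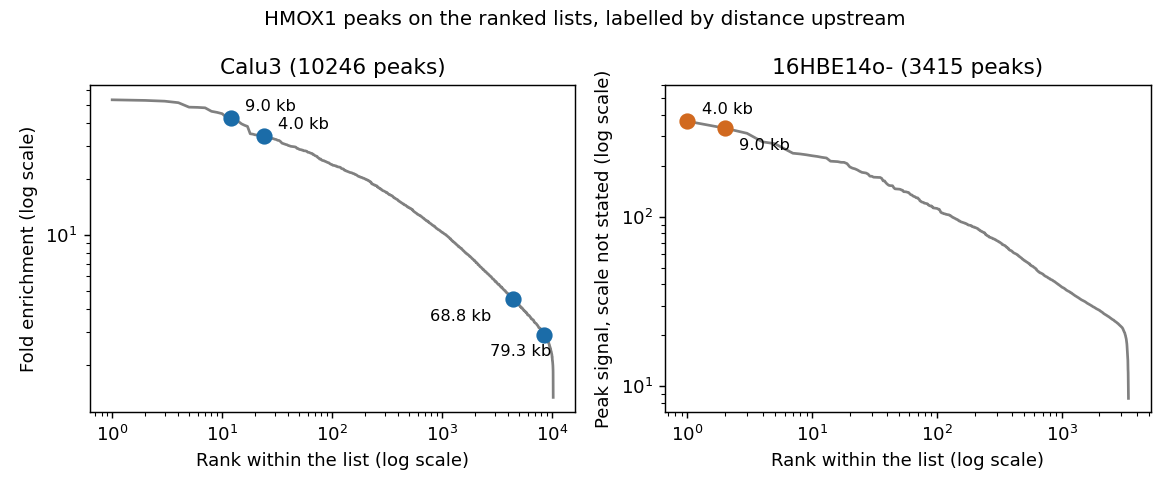
Each panel plots the signal value of every peak (y axis, log scale; fold enrichment in Calu3, peak signal on an unstated scale in 16HBE14o-) against its rank in the list (x axis, log scale) as a grey line, with the HMOX1 peaks as coloured points labelled by their distance upstream in kb. The pair sits at ranks 1 and 2 in 16HBE14o- and at ranks 12 and 24 in Calu3, while the other 2 Calu3 peaks lie at ranks 4429 and 8494.

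In 16HBE14o- the widths followed another pattern, since 3360 of the 3415 peaks (98.4%) were exactly 240 bp wide. The 55 peaks of another width were all among the 100 strongest by signal, and both HMOX1 peaks were among them. The distal peak, at 246 bp, was the single peak of the list wider than 240 bp, and the proximal peak measured 234 bp. The 10 strongest peaks of the list, the HMOX1 pair included, had a median width of 165 bp, and both HMOX1 peaks were wider than that. In the whole list 1.55% of peaks were narrower than the proximal peak, a share set by the many peaks of exactly 240 bp. The lists differ in their widths throughout, so the ranks of widths given here are within each list.

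The BACH1 summits of the lines coincided closely at HMOX1. The proximal summits were 10 bp apart and the distal summits 11 bp apart, each with the Calu3 summit nearer to the gene. Over all 1585 16HBE14o- peaks that met a Calu3 peak, the median distance between the summits was 19 bp (interquartile range 9 to 36), and 30.3% had a distance of 10 bp or less. The HMOX1 distances were thus common among shared peaks. Each 16HBE14o- peak of the pair lay wholly within its Calu3 counterpart, which was 3.23 times as wide at the proximal and 3.46 times as wide at the distal site. Over the whole lists the median widths were alike, 240 bp in 16HBE14o- and 235 bp in Calu3. Over the 100 strongest peaks they were 171 bp and 528 bp. What lies behind the difference in width was not tested. A 16HBE14o- peak lay wholly within its Calu3 counterpart at 949 of the 1572 shared Calu3 peaks (60.4%).

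**Figure D3:**
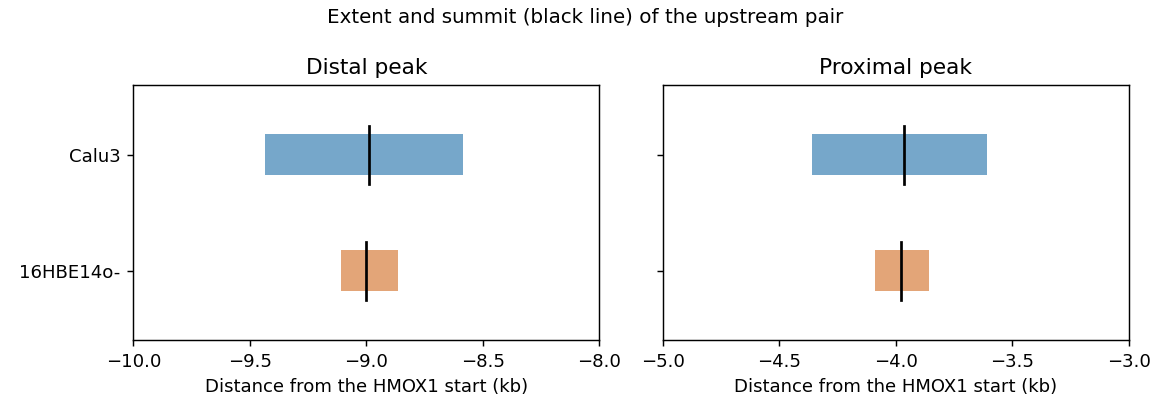
Bars show the extent and black lines the summit of the distal (left) and proximal (right) BACH1 peaks in both lines, along the distance from the HMOX1 start in kb (x axis). The narrower 16HBE14o- bars lie within the Calu3 bars, and the summits are 11 bp apart at the distal and 10 bp apart at the proximal site.

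**Figure D4:**
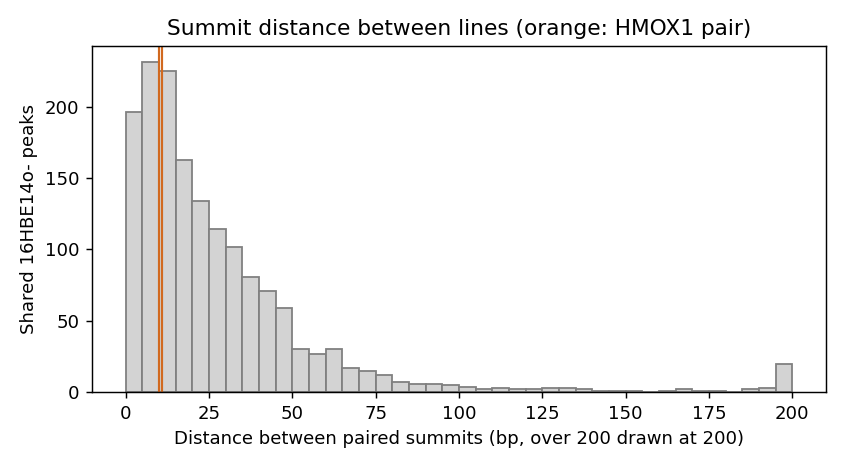
The histogram counts the 1585 shared 16HBE14o- peaks (y axis) by the distance from their summit to that of the Calu3 peak they meet (x axis, bp, larger distances drawn at the right end). The orange lines at 10 and 11 bp are the HMOX1 pair, which lies below the median of 19 bp.

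Sharing at HMOX1 was read against that of the lists as a whole. Both 16HBE14o- peaks of the locus (2 of 2) met a Calu3 peak by at least 1 bp, as did 46.4% of all 16HBE14o- peaks and 96 of the 100 strongest. Of the 4 Calu3 peaks of the locus, 2 met a 16HBE14o- peak, against 15.3% of all Calu3 peaks and 82 of the 100 strongest. Most peaks of such strength were shared in these lists, so the sharing of the HMOX1 pair was the usual state of strong peaks.

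Measured from summit to summit, the spacing of the pair was 5024 bp in 16HBE14o- and 5023 bp in Calu3. The near equality follows from the summit distances of 10 and 11 bp given above, both in the same direction. Between the pair no other peak was listed, over 4776 bp in 16HBE14o- and 4223 bp in Calu3 from the edge of one peak to the edge of the other. Few of the 100 strongest peaks of either list lay within 10 kb of another of the 100. Among the 100 strongest 16HBE14o- peaks, the HMOX1 pair was the only one whose non-overlapping members lay within 10 kb of each other, so that 2 of the 100 peaks were in such a pair. Among the 100 strongest Calu3 peaks there were 2 such pairs, with 4 peaks in all. The other one lay on chromosome 5, with summits at 140090774 and 140098439, 7665 bp apart, and ranks 45 and 9. With summits matched within 100 bp, the HMOX1 pair was found in both lists. As 16HBE14o- had no other such pair, no other could have been found in both. A weaker neighbour was more common: 22 of the 100 strongest 16HBE14o- peaks and 24 of the 100 strongest Calu3 peaks had some non-overlapping peak of the same list within 10 kb, whatever its strength. These counts describe the lists, and no chance level was computed for them.

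HMOX1 itself carried no BACH1 peak in either list. No peak touched the gene body, and none touched the stretch within 1 kb of the gene start. The edge of the nearest peak was 3606 bp upstream of the start in Calu3 and 3855 bp upstream in 16HBE14o-. From the gene start to the downstream end of the region no summit was listed in either line. The depth behind the lists is unknown, so weaker occupancy of the promoter was not detectable here and is not shown to be absent.

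Calu3 had another pair of peaks farther upstream of HMOX1, on the side of TOM1, the protein-coding gene that precedes HMOX1 in the RefSeq gene order. TOM1 encodes a protein of endosomal trafficking. The first of these peaks ran from 35708211 to 35708414, with its summit 68763 bp upstream of the HMOX1 start. Its fold enrichment was 4.52, rank 4429, with 56.7% of the list lower, and its deposited q was 7.49e-06. The other ran from 35697680 to 35697900, with its summit 79257 bp upstream. It had a fold enrichment of 2.91, rank 8494, with 17.1% of the list lower, and a deposited q of 0.133. By a q under 0.05, which 73.3% of all Calu3 peaks had, 3 of the 4 Calu3 peaks of the locus passed. The farther pair measured 204 and 221 bp, with summits 10494 bp apart.

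Neither of these farther Calu3 peaks had a counterpart in 16HBE14o-. The nearest 16HBE14o- summit was 59763 bp from the first and 70257 bp from the second, and was in both cases the distal HMOX1 peak. Peaks of like strength were mostly unshared. Of the 970 Calu3 peaks within 500 ranks of the first, 93 (9.59%) met a 16HBE14o- peak, and of the 1009 within 500 ranks of the second, 43 (4.26%) did. Whether they belong to HMOX1, TOM1 or neither cannot be read from the lists, and gene positions on hg19 were not used here beyond that of HMOX1.

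The HMOX1 pair had no other 16HBE14o- peak nearby on either side. The next peak upstream had its summit 3330.2 kb from the HMOX1 start, with a signal of 57.7 and rank 466. Downstream, the next summit was 671.8 kb from the start, with a signal of 69.9 and rank 326. The upstream distance between neighbouring summits, 3321.2 kb, was equalled or exceeded by 210 of the 3392 distances between neighbouring peaks of this list (6.19%), and the downstream distance of 675.8 kb by 887 (26.1%). The median over the list was 213 kb. Other stretches of this length without a peak were therefore present in the list, the downstream one being of a common size.

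Calu3 had peaks in these same stretches, which ranked below the pair, as did all its other peaks on chromosome 22. Upstream, in the 3320.1 kb between the distal HMOX1 site and the next 16HBE14o- peak, 6 Calu3 peaks were listed. They included the 2 farther peaks of the locus and had fold enrichments from 2.91 to 11.4, with a median of 3.83. The strongest of them ranked 801 and lay 1942.7 kb from the HMOX1 start. Downstream, over 674.6 kb, there were 2, with fold enrichments of 3.12 and 3.75. The Calu3 peaks just outside the region lay 123.4 kb upstream (fold enrichment 3.83, rank 5834, q = 0.00546) and 208.4 kb downstream (fold enrichment 3.75, rank 5962, q = 0.00176) of the HMOX1 start. MCM5, a subunit of the replicative helicase, is the next protein-coding gene downstream of HMOX1, and HMGXB4 precedes TOM1.

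The number of peaks near the HMOX1 pair was ordinary for strong peaks. Within 100 kb of either summit, 16HBE14o- had 1 other peak, which was the partner, and the median over its 100 strongest peaks was also 1. In Calu3 either summit had 3 other peaks within 100 kb, the partner and the pair farther upstream. The median over the 100 strongest Calu3 peaks was 2, the maximum 6, and 26 of the 100 had 3 or more.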

How the data were processed

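BACH1 ChIP-seq was analysed from 2 peak lists, 1 per line, each made from 2 replicates through the irreproducible discovery rate, per the labels. Coordinates are on hg19, as the submitters' processing notes state; the aligner, caller, filters and controls were not given in the sources used here. The authors deposited, for each Calu3 peak, a fold enrichment (so read from the format and values), a −log10 p, a −log10 q and a browser score. Each 16HBE14o- peak was deposited with a signal of unstated scale, a browser score and a further score in place of q. These per-peak values are the authors', and were used only to describe and rank peaks within their list. Read depth is unknown.

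Peaks were selected by summit. Positions are 1-based, widths are end minus start of the deposited rows, ranks run from the highest fold or signal, and overlapping rows were left unmerged. Peaks were shared when they met by at least 1 bp. The overlap, pairing and merging steps were checked on simulated data. The alternatives changed the flank, overlap rule, ranking column, list length, merging and the position taken for a peak. Named were all peaks of the region, HMOX1 and its neighbouring genes in RefSeq, used by name and order only. The region and comparisons were chosen with earlier results of these data known. Sequence motifs and the peaks of other genes were not analysed here. Python 3.11.15, numpy 2.4.6, pandas 2.3.3, scipy 1.17.1 and matplotlib 3.10.9 were used.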

Additional observations from a re-analysis of the deposited data

How the results depend on the processing

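The locus held 2 Calu3 peaks with 50 kb flanks, against 4 with 100 kb, since the pair farther upstream fell outside. Under a reciprocal overlap of 50%, 0 peaks of the locus were shared in either line, because the Calu3 peaks were over 3 times as wide; with summits within 100 bp the 2 pairs were shared. Ranked by p or by q, the distal and proximal Calu3 peaks ranked 1 and 4. By the score in the q column, the 16HBE14o- distal peak also ranked 1, tied with 1055 peaks in all. Midpoints in place of summits put the peaks at −8988 and −3972 bp in 16HBE14o- and at −79270, −68748, −9009 and −3983 bp in Calu3, with the pair 5016 and 5026 bp apart. Among the 200 strongest 16HBE14o- peaks, 4 were in pairs within 10 kb. Within 5 kb, 0 of the 100 strongest were in either line. The remaining 22 values, all counts or ranks, kept to within 1.5 times. Midpoint positions are given above whatever the size of their change. The planned motif search was not run. No paired analysis was possible because the replicates of a line stand in 1 combined list, and none of them could be left out.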
